A study of Homo sapiens with 9 samples.

Results

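The 48 genes described here encode the proteins that license replication origins and run the replication fork. They were chosen by symbol for what they do, with earlier results of these data known. They stand among 12509 genes tested in RNA-seq libraries of DU145 cells. By role, 9 belong to origin licensing, 14 to the CMG helicase and the factors that load or fire it, 10 to the DNA polymerases and primase, 9 to clamp loading and the single-strand binding protein RPA, 3 to fork protection and 3 to nucleotide supply. The level of a gene was its FPKM, the number of fragments scaled by transcript length and by the size of the library, summed over its RefSeq accessions, so that levels of different genes can be set beside each other. All 48 were found, and all averaged at least 1 FPKM, the filter on low values.

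DU145 cells are a line from a human prostate cancer. There were 3 groups of 3 libraries, and the genotype of the line was labelled WT in all of them. The scramble group expressed a scrambled shRNA, and the other groups expressed *FZD6* shRNA1 or *FZD6* shRNA2, hairpins against a Wnt receptor gene that the methods place in the lentiviral vector pLKO.1. The question of the comparison was how knockdown of *FZD6* alters gene expression in these cells. The labels call the libraries of a group a triplicate without naming separate cultures, so p-values measure only the spread between these libraries.

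Before S phase, the origin recognition complex (ORC), CDC6 and CDT1 load a ring made of MCM2 to MCM7 onto DNA, and geminin afterwards holds CDT1 back so that no origin is licensed again in the same cycle. The kinase CDC7 with its activator DBF4 then helps CDC45 and the GINS complex to join the ring, which makes the CMG helicase. Polymerase alpha with primase starts each strand, polymerases epsilon and delta extend it on the sliding clamp PCNA, and many of the genes are transcribed at the entry into S phase under E2F factors.

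Because E2F factors are known to act near the starts of such genes, promoters were read from RefSeq (GRCh38.p14), which held a matching entry for 42 of the 48 members. The 250 bases before each start were searched on both strands for the words TTTCCCGC, TTTCGCGC, TTTGCCGC and TTTGGCGC. At least 1 of these words was found in 12 of 42 members (28.6%) and in 458 of 9648 promoters of tested genes (4.75%). The word CCAAT was found in 24 of 42 members (57.1%) against 35.4% of those promoters, and GGGCGG in 69.0% against 69.3%. Of the 21 members with an entry that were called higher with knockdown, 6 held an E2F word, as did 5 of the 20 that were not called and *POLE*, which was called lower. A match is a description of the letters only. The promoters below are examples and do not stand for the called members. *MCM3* (chr6:52284743-52284992) moved in opposite directions with the 2 shRNAs. Its ring partners are *MCM6* (chr2:135876444-135876693), which was not called over both shRNAs, and *MCM7* (chr7:100101398-100101647). *POLE* (chr12:132687343-132687592) and *POLE2* (chr14:49688215-49688464) encode the catalytic and second subunits of polymerase epsilon. The last is *PCNA* (chr20:5126623-5126872), and all lie on the minus strand. *ORC1*, *MCM2*, *MCM10* and *RFC5*, called higher and not shown, held no E2F word. Capitals mark the E2F words, and in *MCM6* a word on each strand overlaps the other to make a longer run at each of its sites.
MCM3: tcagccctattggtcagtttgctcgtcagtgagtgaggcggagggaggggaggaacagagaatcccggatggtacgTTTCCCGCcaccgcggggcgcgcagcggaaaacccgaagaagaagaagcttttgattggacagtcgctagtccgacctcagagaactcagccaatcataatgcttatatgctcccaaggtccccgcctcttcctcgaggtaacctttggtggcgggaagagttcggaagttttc
MCM6: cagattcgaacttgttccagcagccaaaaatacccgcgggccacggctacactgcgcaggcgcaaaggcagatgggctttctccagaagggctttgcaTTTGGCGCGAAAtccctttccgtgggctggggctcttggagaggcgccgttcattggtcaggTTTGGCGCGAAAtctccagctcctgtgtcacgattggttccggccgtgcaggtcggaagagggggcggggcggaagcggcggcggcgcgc
MCM7: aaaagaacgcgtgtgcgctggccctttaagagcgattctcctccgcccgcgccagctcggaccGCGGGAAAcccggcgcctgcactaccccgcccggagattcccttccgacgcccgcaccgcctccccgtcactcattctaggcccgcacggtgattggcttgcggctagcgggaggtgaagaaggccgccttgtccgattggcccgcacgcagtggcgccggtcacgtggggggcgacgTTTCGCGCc
POLE: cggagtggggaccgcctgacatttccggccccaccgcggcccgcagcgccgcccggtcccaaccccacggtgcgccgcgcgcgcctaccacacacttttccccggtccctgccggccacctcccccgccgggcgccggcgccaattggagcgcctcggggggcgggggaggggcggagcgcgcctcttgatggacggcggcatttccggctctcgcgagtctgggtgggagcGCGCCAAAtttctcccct
POLE2: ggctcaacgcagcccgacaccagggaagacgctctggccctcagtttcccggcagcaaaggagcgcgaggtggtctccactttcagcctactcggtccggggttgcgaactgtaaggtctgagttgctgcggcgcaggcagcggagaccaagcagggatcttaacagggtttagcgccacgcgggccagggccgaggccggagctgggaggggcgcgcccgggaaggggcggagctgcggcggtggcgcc
PCNA: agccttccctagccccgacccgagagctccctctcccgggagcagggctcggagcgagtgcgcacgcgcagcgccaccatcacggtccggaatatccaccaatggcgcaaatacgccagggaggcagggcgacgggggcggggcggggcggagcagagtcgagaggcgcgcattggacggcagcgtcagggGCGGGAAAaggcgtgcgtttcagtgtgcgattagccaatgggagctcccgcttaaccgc
The E2F word of *MCM3* began 174 bases before the start and that of *POLE* 18 bases before it, while *POLE2* held none.

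*FZD6* itself stood at 20.9, 20.5 and 20.04 FPKM in the scramble libraries, 9.47, 10.2 and 9.80 with shRNA1 and 7.84, 8.79 and 7.69 with shRNA2, which was 47.9% and 39.5% of the scramble mean. The depth, estimated from the confidence bounds in the tables, ran from 32.8 M to 41.04 M fragments per library. The epithelial keratins *KRT8* and *KRT18* stood between 202 and 296 FPKM in every library. *EPCAM* ranged over 17.3 to 23.4 FPKM and *CDH1* over 3.38 to 5.02 FPKM, the first higher (log2 fold change 0.26) and the second lower (−0.28) with knockdown, and their part in the results was not tested. The prostate secretory gene *KLK3* was at or near 0 (at most 0.0138 FPKM). Of the leukocyte, fibroblast and endothelial markers, *PTPRC*, *CD3E* and *LUM* were listed at 0 in all libraries, and only *CD68* passed the filter, at 16.9 to 18.1 FPKM in the scramble libraries and 21.3 to 25.7 with knockdown. One property of the libraries moved with the groups. Over 12176 genes with a known transcript length, the Spearman correlation between length and a library's deviation from the gene mean was 0.333 to 0.524 in the scramble libraries, −0.307 to −0.207 with shRNA1, and −0.205, 0.213 and −0.432 with shRNA2, so that shRNA2 replicate 2 stood apart from the other knockdown libraries. For members called over both shRNAs, the value after removal of each library's length trend (called length-adjusted) is given as well.

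Many replication genes stood slightly higher after knockdown of *FZD6*, with 42 of the 48 log2 fold changes above 0 and 6 below. Limma called 24 of the 48 higher in the 6 knockdown libraries than in the 3 scramble libraries and 1 lower, *POLE*, with a Benjamini-Hochberg adjusted p under 0.05. Of all tested genes, 14.4% were called higher and 7.23% lower. The median log2 fold change was 0.13 over the members and 0.03 over all tested genes, on the scale log2(FPKM + 1) used throughout, which understates changes of genes with low levels. The changes were small: the called rises ran from 1.07-fold to 1.19-fold, and *POLE* alone met the thresholds of the study, 1.2-fold or more with an unadjusted p below 0.01, which 3.33% of all tested genes met in either direction. Of all called genes 66.5% were higher, a share that was 50.7% after quantile normalization, where 17 members kept their call and 8 lost it (*GMNN*, *MCM2*, *MCM4*, *POLA2*, *POLE3*, *PCNA*, *RPA3* and *TYMS*), and 53.7% with the length trend removed. In 26 members every knockdown library lay above every scramble library, and in 1 every knockdown library lay below, against 16.4% and 9.46% of all tested genes. In bulk RNA, more cells in S phase and more RNA per cell cannot be told apart. By an EdU incorporation assay, the paper reports reduced proliferation of DU145 cells with knockdown. How that relates to these RNA levels was not tested.

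Shorter transcripts rose more. The Spearman correlation between transcript length and log2 fold change was −0.444 over 12176 genes and −0.656 over the 48 members, given as a description because the genes share the same libraries. With the genes in 3 classes of length, in the shortest (up to 1980 bases) 24.4% were called higher, and 10 of the 12 members there were. In the longest class (above 3605 bases) 4.58% were called higher and 17.0% lower, while 4 of the 17 members there were higher and 1 lower. After removal of the length trend, 13 members were called higher and 1 lower, against 6.84% and 5.89% of the 12176 genes, and the median was 0.10 over the members and 0.0011 over all genes. Of the 25 members called, 13 kept their call and direction and 12 did not, and *ORC4* was called higher only then. Of the 25, 14 kept their call whichever library was left out, and the count was lowest, 14, without scramble replicate 1.

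**Figure D1:**
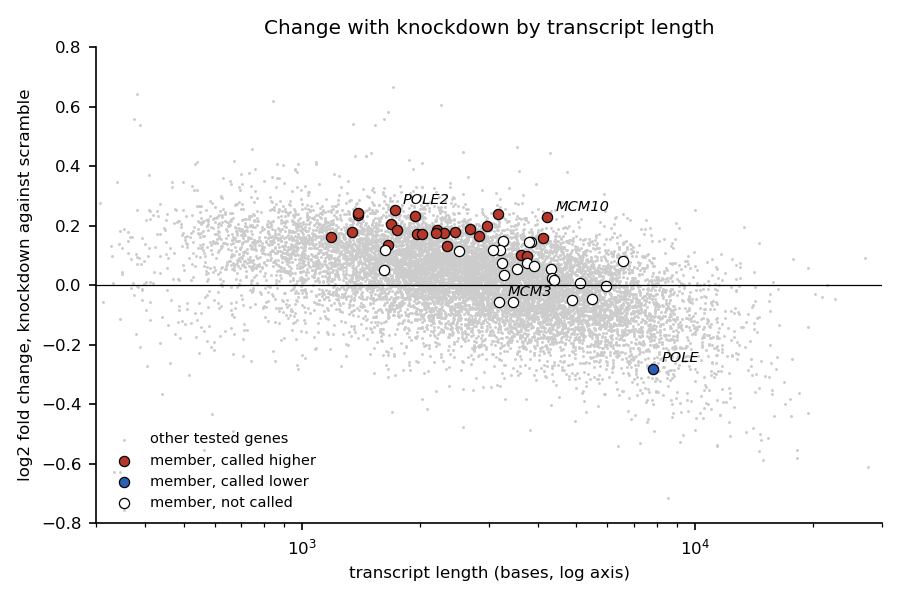
The plot shows transcript length (bases, log axis) against log2 fold change of the 6 knockdown against the 3 scramble libraries for each tested gene (grey) and each member (circles, coloured by the limma call), and 465 genes lie outside the axes. Of the 24 members called higher, 20 have transcripts of up to 3605 bases, *MCM10* is among the other 4, and *POLE* at 7840 bases is the longest member.

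Origin licensing: 4 of 9 members were called higher and none lower, against 14.4% and 7.23% of all tested genes. The median log2 fold change was 0.12, with all 9 values positive. The median was 0.08 with the length trend removed, when 4 were called higher, *ORC1*, *ORC5*, *CDC6* and *ORC4*, against 6.84% over all genes. *ORC1*, the subunit that binds ATP and joins the complex in G1, had 11.6, 11.5 and 11.3 FPKM in the scramble libraries, 13.1, 14.003 and 13.2 with shRNA1 and 14.4, 13.5 and 14.1 with shRNA2. Every knockdown library lay above every scramble library, and the log2 fold change was 0.24 ± 0.033 (SE, adjusted p = 0.00244), or 0.22 with the length trend removed. *ORC5*, another ATP-binding subunit, had 20.4, 20.9 and 21.1 FPKM with the scramble, against 23.7, 23.7 and 25.2 FPKM with shRNA1 and 23.4, 26.2 and 25.7 FPKM with shRNA2. Its groups did not overlap either, with a log2 fold change of 0.23 ± 0.04 (SE, adjusted p = 0.00569), or 0.17 length-adjusted (adjusted p = 0.0298).

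*CDC6*, the loading factor that joins ORC at the origin, had 19.1, 19.3 and 18.7 FPKM in the scramble libraries, 20.6, 21.01 and 20.9 with shRNA1 and 21.3, 22.9 and 22.3 with shRNA2. The shRNA2 libraries were the highest and no knockdown library reached the scramble range. Its log2 fold change was 0.16 ± 0.036 (SE, adjusted p = 0.0134), or 0.14 length-adjusted (adjusted p = 0.0392), and the call was lost without scramble replicate 1 (adjusted p = 0.0505) or without scramble replicate 3 (adjusted p = 0.0558). *GMNN*, which encodes geminin, had 36.8, 37.3 and 36.6 FPKM with the scramble, against 39.6, 39.9 and 40.7 FPKM with shRNA1 and 41.7, 43.4 and 43.5 FPKM with shRNA2. Again the groups did not overlap and shRNA2 gave the higher values, with a log2 fold change of 0.16 ± 0.035 (SE, adjusted p = 0.0127). It was 0.06 (adjusted p = 0.357) with the length trend removed, and without scramble replicate 1 the adjusted p was 0.0514.

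*CDT1*, the MCM loader and the licensing gene with the highest level, had 41.4, 41.1 and 41.5 FPKM in the scramble libraries, 44.2, 43.5 and 42.9 with shRNA1 and 45.9, 39.8 and 45.6 with shRNA2. The shRNA2 replicate 2 library lay below all scramble libraries while the other knockdown libraries lay above them, so that the groups overlapped, and the log2 fold change was 0.08 ± 0.042 (SE, adjusted p = 0.237). Without shRNA2 replicate 2 it was 0.10 (adjusted p = 0.0252). *ORC2*, *ORC3* and *ORC4* ranged over 10.1 to 12.3, 12.2 to 14.7 and 3.28 to 3.87 FPKM, with log2 fold changes of 0.05, 0.12 and 0.08, none of them called, though *ORC4* had 0.16 (adjusted p = 0.0433) with the length trend removed. *ORC6*, the most loosely bound subunit, is given with the comparison of the shRNAs.

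**Figure D2:**
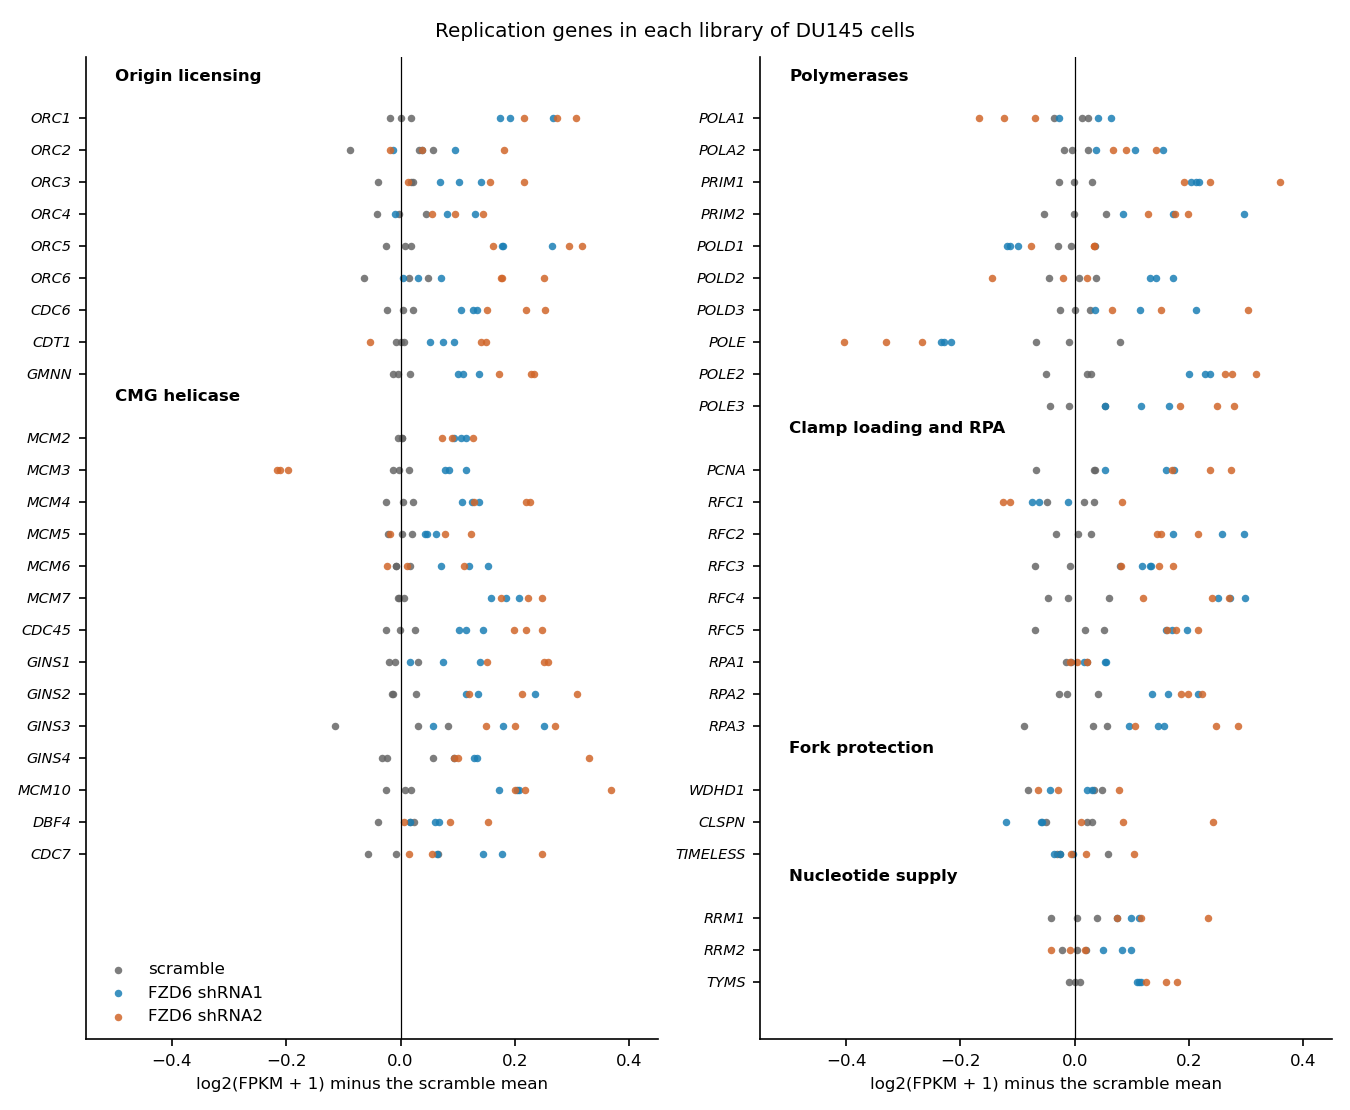
Each row is a replication gene and each point a library, placed at its log2(FPKM + 1) minus the mean of the scramble libraries. Most rows have their shRNA1 and shRNA2 points to the right of 0, *POLE* has all 6 to the left, and *MCM3* has shRNA1 to the right and shRNA2 to the left.

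CMG helicase: 7 of 14 members were called higher and none lower, with a median of 0.15, against 14.4% and 7.23% of all tested genes called. Removal of the length trend gave a median of 0.12 and 4 higher calls, *MCM2*, *MCM4*, *MCM7* and *MCM10*, against 6.84% over all genes. In the MCM2 to MCM7 ring, whose subunits stand in equal number in the protein complex, *MCM7* had the highest level and *MCM6* the lowest in every library. *MCM7* had 119.9, 119 and 119 FPKM in the scramble libraries, 133, 136 and 138 with shRNA1 and 142, 135 and 139 with shRNA2. No knockdown library came near the scramble range, with a log2 fold change of 0.20 ± 0.024 (SE, adjusted p = 0.00157), and 0.18 with the length trend removed. *MCM4* had 78.4, 79.4 and 76.8 FPKM with the scramble, against 85.3, 84.2 and 86.05 FPKM with shRNA1 and 91.6, 91.2 and 85.5 FPKM with shRNA2. All knockdown libraries were higher, with a log2 fold change of 0.16 ± 0.033 (SE, adjusted p = 0.0116), or 0.17 length-adjusted (adjusted p = 0.0105).

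*MCM2* had 65.7, 66.02 and 66.03 FPKM in the scramble libraries, 71.4, 70.4 and 70.999 with shRNA1 and 72.1, 69.3 and 70.2 with shRNA2. The scramble libraries lay within a narrow band below all the others, and the log2 fold change was 0.10 ± 0.02 (SE, adjusted p = 0.00846), or 0.10 length-adjusted (adjusted p = 0.0242). After quantile normalization *MCM2* had 0.06 (adjusted p = 0.0783) and *MCM4* had 0.10 (adjusted p = 0.123). *MCM5* ranged over 83.6 to 92.5 FPKM and *MCM6* over 50.7 to 57.4 FPKM, with overlapping groups and log2 fold changes of 0.06 ± 0.03 (SE, adjusted p = 0.229) and 0.07 ± 0.04 (SE, adjusted p = 0.226).

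*MCM3* went opposite ways with the shRNAs. It had 74.8, 73.9 and 73.4 FPKM with the scramble, against 78.5, 78.1 and 80.2 FPKM with shRNA1 and 63.8, 64.4 and 63.6 FPKM with shRNA2. The 3 groups did not overlap each other: shRNA1 was above the scramble and shRNA2 below it. The log2 fold change was 0.09 ± 0.02 (SE, adjusted p = 0.0181) with shRNA1 and −0.21 ± 0.02 (SE, adjusted p = 0.000619) with shRNA2, and the difference, shRNA2 minus shRNA1, was −0.30 ± 0.02 (SE, adjusted p = 0.000235). The rise with shRNA1 was not called after quantile normalization or without scramble replicate 2, scramble replicate 3 or shRNA1 replicate 3, while the fall with shRNA2 kept its call in all 9 omissions of a library. The adjusted p of the difference stayed at or below 0.00242 in all of these omissions, and its size was −0.30 with the length trend removed. As a share of the summed level of the ring, *MCM3* was 15.5% to 15.7% in the scramble libraries, 15.2% to 15.5% with shRNA1 and 12.4% to 12.9% with shRNA2. *MCM3* has 13 RefSeq accessions. The leading one, which held 67.5% of the level, averaged 54.5 ± 1.3 FPKM (SD, n = 3) in the scramble, 48.9 ± 3.1 with shRNA1 and 43.1 ± 1.5 with shRNA2, lower with shRNA1 than in the scramble, and the split of fragments between accessions is an estimate.

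**Figure D3:**
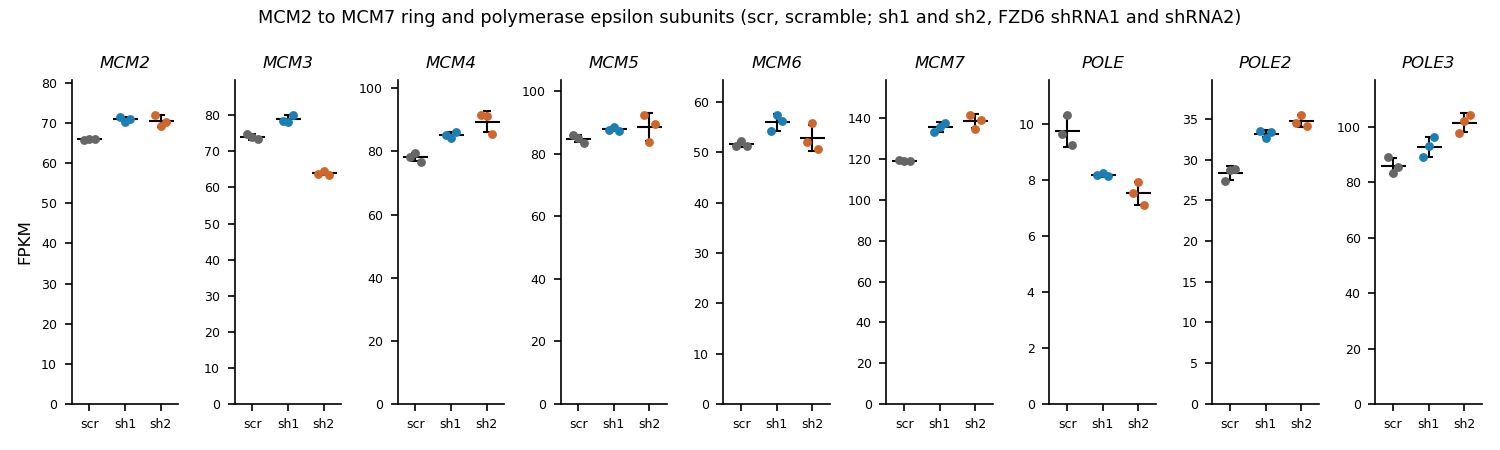
FPKM of the ring genes *MCM2* to *MCM7* and of the polymerase epsilon genes *POLE*, *POLE2* and *POLE3*, with a panel for each gene and axes from 0. Points are libraries, and black bars give the mean ± SD of 3. *MCM3* is the ring gene that drops with shRNA2, from 73.4 to 74.8 FPKM in the scramble to 63.6 to 64.4, and *POLE* drops with both shRNAs while *POLE2* rises.

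*CDC45*, the helicase subunit that joins the ring at firing, had 28.2, 28.7 and 29.3 FPKM in the scramble libraries, 31.9, 31.2 and 30.9 with shRNA1 and 33.1, 33.6 and 34.3 with shRNA2. The groups did not overlap, and shRNA2 lay above shRNA1 throughout. The log2 fold change was 0.17 ± 0.036 (SE, adjusted p = 0.0122), and the call was lost without scramble replicate 1 or 2 (adjusted p = 0.0572 and 0.0514) and with the length trend removed (0.11, adjusted p = 0.0957). *MCM10*, which helps to activate the helicase, had 15.3, 15.4 and 14.95 FPKM with the scramble, against 17.3, 17.7 and 17.7 FPKM with shRNA1 and 17.7, 19.96 and 17.9 FPKM with shRNA2. The scramble libraries were the lowest and shRNA2 replicate 2 stood clearly above all others, with a log2 fold change of 0.23 ± 0.042 (SE, adjusted p = 0.00684). Its transcript is longer than most, at 4218 bases, and with the length trend removed the value was 0.24.

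Of the 4 GINS genes, whose products bridge CDC45 and the ring, *GINS2* had 12.3, 12.3 and 12.7 FPKM in the scramble libraries, 14.8, 13.6 and 13.8 with shRNA1 and 14.6, 13.6 and 15.7 with shRNA2. The groups did not overlap, and the log2 fold change was 0.19 ± 0.045 (SE, adjusted p = 0.0199). It was not called length-adjusted (0.16, adjusted p = 0.0556) or without scramble replicate 1, 2 or 3 (adjusted p = 0.0501 to 0.0830). *GINS3* ranged over 9.25 to 12.4 FPKM with a log2 fold change of 0.18 ± 0.056 (SE, adjusted p = 0.0447), and it lost its call in 8 of the 9 omissions, all but that of shRNA1 replicate 1 (adjusted p of up to 0.179). Length-adjusted it was 0.13 (adjusted p = 0.151). *GINS1* (4.13 to 5.23 FPKM) and *GINS4* (6.79 to 9.02 FPKM) were not called, at 0.15 ± 0.056 (SE, adjusted p = 0.0906) and 0.15 ± 0.054 (SE, adjusted p = 0.0877). The kinase *CDC7* (0.12, adjusted p = 0.154) and its activator *DBF4* (0.06, adjusted p = 0.222) were not called.

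Polymerases and primase: 5 of 10 members were called higher and 1 lower, with a median of 0.12, against 14.4% and 7.23% of all tested genes called. Once the length trend was removed, *POLE2* was the one called higher and *POLE* the one called lower, at a median of 0.11. Those counts were near the shares over all genes, 6.84% and 5.89%. *POLE*, the catalytic subunit of polymerase epsilon, had 9.64, 10.3 and 9.23 FPKM in the scramble libraries, 8.15, 8.23 and 8.12 with shRNA1 and 7.52, 7.90 and 7.10 with shRNA2. All 6 knockdown libraries lay below the lowest scramble library. The log2 fold change was −0.28 ± 0.05 (SE, adjusted p = 0.0062), a fall that passed with shRNA1 (−0.23, adjusted p = 0.0136) and shRNA2 (−0.33, adjusted p = 0.00209). The value was −0.18 (adjusted p = 0.0298) with the length trend removed. With the replicate number as a block as well, the adjusted p was 0.0636 and the call was lost. No omission of a library lost the call over both shRNAs, and that of shRNA1 alone was lost without shRNA1 replicate 3.

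*POLE2*, the second subunit of the same enzyme, had 27.3, 28.7 and 28.9 FPKM with the scramble, against 33.5, 32.6 and 33.3 FPKM with shRNA1 and 34.5, 35.5 and 34.1 FPKM with shRNA2. All knockdown libraries were higher, and its log2 fold change of 0.25 ± 0.031 (SE, adjusted p = 0.00166) was the largest rise among the members. Length-adjusted it was 0.18 (adjusted p = 0.0151), below *MCM10* (0.24) and *ORC1* (0.22). *POLE3*, a histone-fold subunit, had 89.1, 83.4 and 85.3 FPKM in the scramble libraries, 89.1, 93.1 and 96.4 with shRNA1 and 97.7, 102 and 104 with shRNA2. The lowest knockdown library was just above the highest scramble library, at a log2 fold change of 0.17 ± 0.05 (SE, adjusted p = 0.0366). That call was lost without any single one of the scramble libraries, shRNA1 replicate 3, shRNA2 replicate 1 or shRNA2 replicate 3, at an adjusted p of up to 0.142 (without scramble replicate 2), and length-adjusted (0.12, adjusted p = 0.143). The ratio of *POLE2* to *POLE* was 2.79 to 3.13 in the scramble libraries, 3.97 to 4.11 with shRNA1 and 4.49 to 4.81 with shRNA2, and *POLE* transcripts are far longer, at 7840 against 1724 bases.

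*PRIM1*, the catalytic primase subunit, had 31.1, 32.4 and 31.7 FPKM in the scramble libraries, 36.7, 36.9 and 37.02 with shRNA1 and 36.3, 40.96 and 37.6 with shRNA2. The groups did not overlap and shRNA2 replicate 2 was the highest. Its log2 fold change was 0.24 ± 0.038 (SE, adjusted p = 0.0043), kept in every omission, but with the length trend removed it was 0.14 (adjusted p = 0.0773). *PRIM2*, the large primase subunit, had 14.2, 14.8 and 15.4 FPKM with the scramble, against 18.4, 16.8 and 15.7 FPKM with shRNA1 and 16.2, 16.8 and 17.1 FPKM with shRNA2. The groups did not overlap, and shRNA1 replicate 1 was the highest. Its log2 fold change was 0.18 ± 0.045 (SE, adjusted p = 0.0255), a call lost without scramble replicate 1, scramble replicate 2 or shRNA2 replicate 3 (adjusted p = 0.111, 0.0898 and 0.0501) and length-adjusted (0.13, adjusted p = 0.0955). Of polymerase alpha, *POLA2* ranged over 15.4 to 17.5 FPKM with a rise of 0.10 ± 0.03 (SE, adjusted p = 0.0461), lost in 7 of the 9 omissions, all but those of shRNA1 replicate 1 and shRNA2 replicate 2 (adjusted p of up to 0.155), and length-adjusted (0.10, adjusted p = 0.086). *POLA1*, the catalytic subunit (5.52 to 6.66 FPKM), was not called over both shRNAs (−0.05, adjusted p = 0.562). It was called lower with shRNA2 alone, at −0.12 ± 0.037 (SE, adjusted p = 0.0456), a call kept without shRNA1 replicate 3 or shRNA2 replicate 2 and lost in the other 7 omissions (adjusted p of up to 0.131).

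Of polymerase delta, none of *POLD1*, *POLD2* and *POLD3* was called over both shRNAs, at −0.06 ± 0.043 (SE, adjusted p = 0.382), 0.05 ± 0.067 (SE, adjusted p = 0.631) and 0.15 ± 0.056 (SE, adjusted p = 0.095). *POLD2*, the regulatory subunit and the polymerase gene with the highest level, had 109.6, 104 and 107 FPKM with the scramble, against 117, 118 and 120.5 FPKM with shRNA1 and 105, 96.6 and 108 FPKM with shRNA2. The shRNA1 libraries lay above the scramble range, while 2 of the shRNA2 libraries lay within it and replicate 2 was the lowest of all. The difference, shRNA2 minus shRNA1, was −0.20 ± 0.044 (SE, adjusted p = 0.0359), kept without shRNA2 replicate 2 or 3 and lost in the other 7 omissions (adjusted p of up to 0.12).

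Clamp loading and RPA: 7 of 9 members were called higher and none lower, against 14.4% and 7.23% of all tested genes. The median was 0.18, the highest of the groups before the length trend was removed. Length-adjusted it was 0.11, below the 0.12 of the CMG helicase. Then 4 were called higher, *RFC2*, *RFC4*, *RFC5* and *RPA2*, against 6.84% over all genes. *PCNA*, the sliding clamp, had 83.05, 89.3 and 89.2 FPKM in the scramble libraries, 98.4, 97.4 and 90.4 with shRNA1 and 98.1, 105 and 103 with shRNA2. The lowest knockdown library, shRNA1 replicate 3, was just above the scramble range. The log2 fold change was 0.18 ± 0.047 (SE, adjusted p = 0.0288), and it was 0.08 (adjusted p = 0.337) with the length trend removed and lost its call without any single one of the scramble libraries or shRNA2 replicate 3 (adjusted p of up to 0.123, without scramble replicate 1). An antisense gene, *PCNA-AS1*, overlaps 384 bases of *PCNA*. The library kit keeps strand, but whether the counting used it is not given in the sources used here.

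The clamp loader RFC is a ring of a large subunit, RFC1, and small subunits. Before the length trend was removed, the small subunits were called higher and the large one was not. With the trend removed, *RFC3* was not called either. *RFC4* had 33.3, 32.5 and 35.1 FPKM in the scramble libraries, 41.6, 40.2 and 40.8 with shRNA1 and 36.6, 40.8 and 39.9 with shRNA2. The groups did not overlap, with shRNA2 replicate 1 lower than the other knockdown libraries, and the log2 fold change was 0.24 ± 0.042 (SE, adjusted p = 0.00552). Length-adjusted it was 0.15 (adjusted p = 0.0435), and with the replicate block as well the call was lost (adjusted p = 0.0764). *RFC2* had 49.9, 47.9 and 49.2 FPKM with the scramble, against 55.3, 58.8 and 60.4 FPKM with shRNA1 and 54.2, 54.5 and 57.1 FPKM with shRNA2. The scramble libraries were the lowest and the shRNAs overlapped each other, with a log2 fold change of 0.21 ± 0.038 (SE, adjusted p = 0.00714). The length-adjusted value was 0.13 (adjusted p = 0.0333), not called with the replicate block as well (adjusted p = 0.0583). *RFC5* had 24.2, 24.8 and 22.7 FPKM in the scramble libraries, 26.99, 27.5 and 26.8 with shRNA1 and 27.9, 27.1 and 26.8 with shRNA2, without overlap. Its log2 fold change was 0.18 ± 0.029 (SE, adjusted p = 0.00461), or 0.14 (adjusted p = 0.0217) with the length trend removed, and it spans a region where *WSB2* lies on the other strand. *RFC3* had 17.4, 19.4 and 18.2 FPKM with the scramble, against 20.2, 19.97 and 20.2 FPKM with shRNA1 and 19.5, 20.8 and 20.4 FPKM with shRNA2. The lowest knockdown library exceeded the highest scramble library by a narrow margin. The log2 fold change was 0.13 ± 0.034 (SE, adjusted p = 0.0274), lost without scramble replicate 1 or 3, shRNA1 replicate 3 or shRNA2 replicate 3 (adjusted p of up to 0.113, without scramble replicate 1) and with the length trend removed (0.08, adjusted p = 0.139). *RFC1* ranged over 16.5 to 19.2 FPKM with a log2 fold change of −0.05 ± 0.047 (SE, adjusted p = 0.473). The ratio of *RFC4* to *RFC1* was 1.76 to 1.92 in the scramble libraries, 2.25 to 2.41 with shRNA1 and 2.13 to 2.41 with shRNA2, with transcripts of 1388 and 4868 bases.

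RPA coats single-stranded DNA at the fork. Of its subunits, *RPA2* had 37.97, 36.2 and 36.5 FPKM in the scramble libraries, 40.6, 41.4 and 42.98 with shRNA1 and 43.2, 42.4 and 42.1 with shRNA2. Every knockdown library was higher, with a log2 fold change of 0.19 ± 0.027 (SE, adjusted p = 0.0028), or 0.11 (adjusted p = 0.0327) with the length trend removed. *RPA3*, the smallest subunit, ranged over 17.5 to 23.03 FPKM with 0.17 ± 0.051 (SE, adjusted p = 0.042), lost length-adjusted (0.11, adjusted p = 0.173) and in 7 of the 9 omissions, all but those of shRNA1 replicate 3 and shRNA2 replicate 2 (adjusted p of up to 0.17). *RPA1*, the large subunit, ranged over 42.96 to 45.1 FPKM, and its groups overlapped, at 0.02 ± 0.023 (SE, adjusted p = 0.502).

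**Figure D4:**
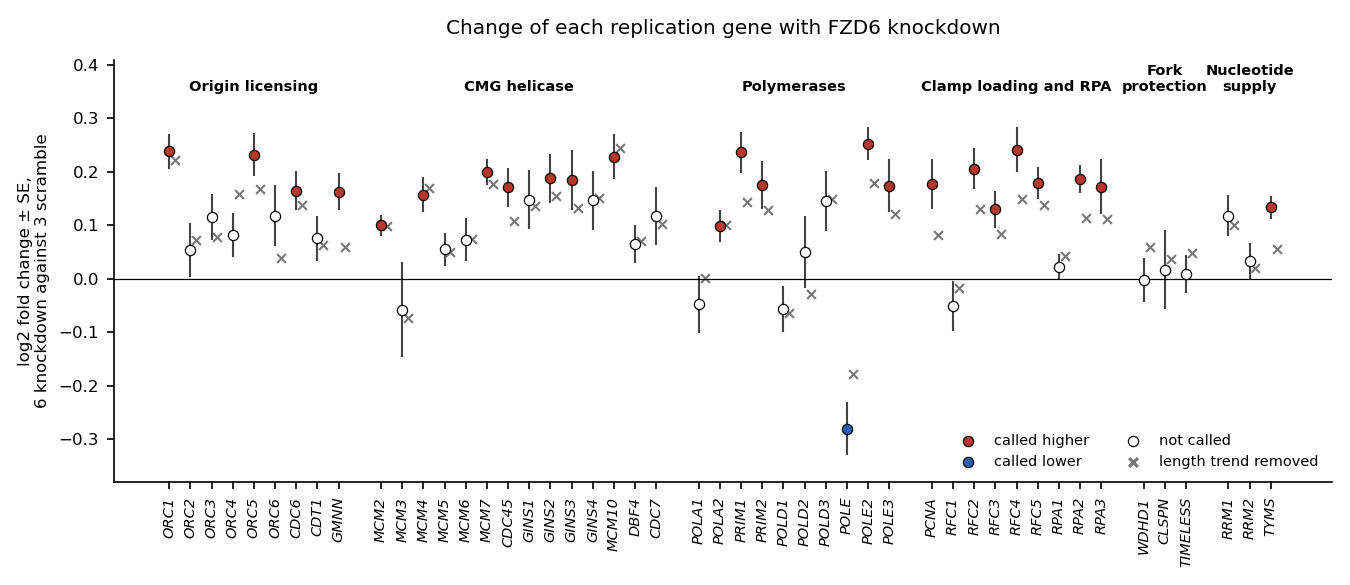
Circles give the log2 fold change ± SE of each replication gene in 6 knockdown against 3 scramble libraries, filled where limma called it, and crosses give the value with the length trend of each library removed. Clamp loading genes have a median of 0.18 as circles and 0.11 as crosses, against 0.15 and 0.12 for the CMG helicase, and *POLE* is the filled point below 0.

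Fork protection: none of the 3 members was called, at an unadjusted p under 0.05 in 0 of them, and the median was 0.0087. Over all tested genes 14.4% were called higher and 7.23% lower, and 0 of 3 cannot be told apart from those shares. *TIMELESS*, which helps to hold helicase and polymerase together, had 19.2, 20.4 and 19.1 FPKM in the scramble libraries, 19.2, 19.1 and 19.5 with shRNA1 and 19.8, 21.1 and 19.5 with shRNA2. The groups overlapped, at 0.0087 ± 0.036 (SE, adjusted p = 0.889). *CLSPN*, which encodes the checkpoint adaptor claspin, had 5.13, 5.09 and 4.79 FPKM with the scramble, against 4.77, 4.52 and 4.76 FPKM with shRNA1 and 5.37, 6.10 and 5.05 FPKM with shRNA2. The shRNA1 libraries lay below all scramble libraries and shRNA2 replicate 2 above all others, with a log2 fold change of 0.02 ± 0.074 (SE, adjusted p = 0.895). *WDHD1*, the polymerase alpha anchor also called AND-1, ranged over 14.5 to 16.3 FPKM, at −0.0014 ± 0.041 (SE, adjusted p = 0.985). The transcripts of these genes are long, from 4396 to 5964 bases, and with the length trend removed the median was 0.05 with none called over both shRNAs. *TIMELESS* was then called higher with shRNA2 alone, and *CLSPN* was called higher in shRNA2 against shRNA1.

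Nucleotide supply: 1 of 3 members was called higher, against 14.4% of all tested genes, and the median was 0.12. *TYMS*, which encodes the thymidylate synthase that makes dTMP and has the highest level of the 48, had 151, 154 and 153 FPKM in the scramble libraries, 165, 165 and 165 with shRNA1 and 166, 170.4 and 173 with shRNA2. All knockdown libraries lay above the scramble range, with a log2 fold change of 0.13 ± 0.022 (SE, adjusted p = 0.0049). It was 0.06 (adjusted p = 0.155) with the length trend removed and after quantile normalization 0.06 (adjusted p = 0.240). *ENOSF1* overlaps *TYMS* on the other strand. Of ribonucleotide reductase, *RRM1* (59.4 to 72.03 FPKM) stood higher in all knockdown libraries but missed the threshold (0.12 ± 0.038 SE, adjusted p = 0.0551), and *RRM2* (68.3 to 75.4 FPKM) had overlapping groups (0.03 ± 0.034 SE, adjusted p = 0.52).

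The shRNAs were then compared with each other. Both comparisons with the scramble use the same 3 scramble libraries, so likeness between them is not a result. With shRNA1, 19 of the 48 were called higher and 1 lower, against 12.8% and 7.19% of all tested genes. With shRNA2, 24 were called higher and 3 lower, against 16.0% and 11.4%. *ORC1*, *ORC5*, *CDC6*, *GMNN*, *MCM2*, *MCM4*, *MCM7*, *CDC45*, *MCM10*, *PRIM1*, *POLE2*, *RFC2*, *RFC4*, *RFC5*, *RPA2* and *TYMS*, 16 in all, were called higher with each shRNA. *POLE* was called lower with each. The shRNA1 calls of *CDC6*, *MCM4* and *MCM10* were each lost in 6 of the 9 omissions of a library, while their shRNA2 calls were kept in all. Quantile normalization removed the shRNA1 calls of *CDC6*, *GMNN*, *MCM2*, *MCM4*, *CDC45* and *TYMS*, and the shRNA2 call of *MCM2*. Length-adjusted, 7 of these 16 were called higher with each shRNA (*ORC1*, *MCM2*, *MCM4*, *MCM7*, *MCM10*, *POLE2* and *RFC5*), and the counts over all members were 11 higher and 1 lower with shRNA1 (6.70% and 6.36% of all tested genes) and 21 and 3 with shRNA2 (11.7% and 12.4%). Another 8, *ORC6*, *GINS1*, *GINS2*, *POLE3*, *PCNA*, *RFC3*, *RPA3* and *RRM1*, were called higher with shRNA2 and not called with shRNA1. The reverse held for 2, *PRIM2* and *POLD2*, called higher with shRNA1 and not called in either direction with shRNA2. *MCM3* was called higher with shRNA1 and lower with shRNA2, and *POLA1* lower with shRNA2 and not with shRNA1. The median log2 fold change of the members was 0.12 with shRNA1 and 0.16 with shRNA2, against 0.03 and 0.03 over all tested genes.

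The difference between the shRNAs was itself called for 4 of the 48. *ORC6* and *CDC45* were higher with shRNA2 and *MCM3* and *POLD2* lower, against 1.97% and 5.05% of all tested genes. *ORC6* had 12.6, 11.6 and 12.3 FPKM in the scramble libraries, 12.8, 12.4 and 12.2 with shRNA1 and 13.9, 14.6 and 13.8 with shRNA2. The shRNA2 libraries lay above all others while shRNA1 overlapped the scramble, and the difference was 0.17 ± 0.037 (SE, adjusted p = 0.0368), kept without scramble replicate 1 or 2 and lost in the other 7 omissions (adjusted p of up to 0.128). For *CDC45* the difference was 0.10 ± 0.024 (SE, adjusted p = 0.0487). The call of *MCM3* held in every omission of a library and that of *CDC45* in none. Fitted on the 6 knockdown libraries alone, *MCM3* was the only member called.

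Beside the 48 members, 80 other replication genes in 5 lists were measured, of which 78 passed the filter, and 19 were called higher and 2 lower with knockdown, with a median of 0.07. The shares over all tested genes were 14.4% higher and 7.23% lower, or 6.84% and 5.89% length-adjusted. Of the 8 genes of Okazaki fragment processing, 4 were called higher, the largest rises being *DNA2*, a nuclease and helicase (0.22 ± 0.045 SE, adjusted p = 0.00998), and *RNASEH2A*, a subunit of the enzyme that removes RNA from DNA (0.20 ± 0.034 SE, adjusted p = 0.00522). Length-adjusted, these 2 were still called and the other 2 were not, and the median of the list went from 0.12 to 0.04. Of 20 further fork genes 1 was called, a share below that over all genes. It was *TIPIN*, the partner of TIMELESS (0.21 ± 0.043 SE, adjusted p = 0.0107), and it was not called length-adjusted (0.13, adjusted p = 0.09). Of 23 S phase control genes tested 3 were higher and 1 lower, against 14.4% and 7.23%, shares no higher than over all genes. They included *CDC25A*, a phosphatase that activates cyclin-dependent kinases (0.21 ± 0.047 SE, adjusted p = 0.0144), *CCND1*, which encodes cyclin D1 (0.19 ± 0.046 SE, adjusted p = 0.0187), and the lower *DBF4B*, an alternative activator of CDC7 (−0.14 ± 0.037 SE, adjusted p = 0.0321), and these 3 were still called length-adjusted.

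Among 17 genes of nucleotide synthesis 8 were called higher and 1 lower, against 14.4% and 7.23% of all tested genes. *IMPDH2*, which makes the guanine nucleotide precursor (0.25 ± 0.04 SE, adjusted p = 0.00461), and *DCTPP1*, a dCTP pyrophosphatase (0.23 ± 0.049 SE, adjusted p = 0.0119), rose most, and length-adjusted the second was not called (0.13, adjusted p = 0.0527). The list then had 4 called higher and 2 lower, against 6.84% and 5.89% over all genes. *CAD*, the enzyme that starts pyrimidine synthesis, had 33.7, 33.8 and 32.6 FPKM with the scramble, against 23.99, 24.6 and 24.3 FPKM with shRNA1 and 24.9, 25.5 and 23.3 FPKM with shRNA2. All knockdown libraries lay well below the scramble, with a log2 fold change of −0.44 ± 0.029 (SE, adjusted p = 0.00027), larger in size than that of any of the 48 members. After removal of the length trend it was −0.35 (adjusted p = 0.000151). Among 10 tested genes of chromatin assembly 3 were called higher, against 14.4% of all tested genes. The largest rises were *CHAF1B*, a subunit of chromatin assembly factor 1 (0.15 ± 0.035 SE, adjusted p = 0.0186), and *ASF1A*, a histone chaperone (0.14 ± 0.04 SE, adjusted p = 0.0391), the latter not called length-adjusted (0.09, adjusted p = 0.162). Removal of the length trend gave 11 called higher and 3 lower among the 78.

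Markers of other cell cycle states moved unevenly. Of 10 genes of G2 and M phase, *CDK1* (0.14) and *CDC20* (0.14) were called higher and *CENPF* (−0.43) and *TOP2A* (−0.25) lower, with a median of 0.08. Over all tested genes 14.4% were called higher and 7.23% lower, so the count of higher calls was near its share. Length-adjusted, none of the 10 was called higher, *CENPF* (−0.28) and *TOP2A* (−0.19) were still lower, and their median was 0.02. The summed level of this list was 729 to 733 FPKM in the scramble libraries, 752 to 757 with shRNA1 and 721 to 736 with shRNA2. Of 5 arrest and p53 genes, 1 was called over both shRNAs, *GADD45A* (0.21), a count near the share over all genes. *GADD45A* was not called length-adjusted (0.11, adjusted p = 0.176), when *MDM2* was (0.27, adjusted p = 0.0285). The cyclin-dependent kinase inhibitor *CDKN1A* had 31.9, 31.03 and 32.9 FPKM in the scramble libraries, 33.1, 32.4 and 33.2 with shRNA1 and 36.2, 35.2 and 38.6 with shRNA2, and its log2 fold change of 0.12 ± 0.054 (SE, adjusted p = 0.152) was not called. With shRNA2 alone *CDKN1A* was called higher (0.19 ± 0.037 SE, adjusted p = 0.00775), its libraries lying above all others, and another inhibitor, *CDKN1B*, lower (−0.34 ± 0.048 SE, adjusted p = 0.0022). Their part in the changes of the replication genes was not tested.

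When each RefSeq accession was tested on its own, 79 accessions of the 48 members had a mean of at least 1 FPKM, and 9 were called higher and 1 lower. Over all genes, 682 of 20600 accessions were called higher (3.31%) and 304 lower (1.48%). The called accessions belonged to *MCM2*, *MCM4*, *MCM7*, *ORC5*, *PRIM1*, *RFC4*, *RFC5*, *RPA2* and *TYMS*, higher, and *POLE*, lower, each holding most of its gene's level. In 36 of the 48 members the leading accession held at least 80% of the level.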

How the data were processed

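Total RNA of 9 DU145 libraries (3 groups of 3) was sequenced by the authors from a stranded mRNA kit. The authors mapped reads with STAR and deposited FPKM with confidence bounds for each RefSeq transcript, calculated with Cufflinks. The submitters' processing notes name the build hg38, whereas the methods name mm10, and the loci in the tables are human. No counts are in these tables and no count model was fitted.

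Accessions were paired with symbols through a RefSeq gene table (GRCh38.p14), and 72645 of 73240 matched. FPKM were summed per gene, 42 genes with an entry not marked OK were left out, and those averaging 1 FPKM or more were kept. Values were log2(FPKM + 1). Knockdown (6 libraries) was compared with scramble (3) by limma 3.58.1 in R 4.3.3 with a mean-variance trend and Benjamini-Hochberg adjustment (threshold 0.05), and each shRNA by contrasts in a model with 3 groups. Depth was estimated from the upper confidence bounds of Cufflinks, which scale with the square root of the fragment number, and the member with the fewest estimated fragments, *GINS1*, had about 458 in its lowest library. Transcript lengths came from GENCODE v29, and the length trend of each library was fitted by lowess with a span of 0.3. The fits were checked on simulated data. Python 3.11.15 was used for all else, with numpy 2.4.6, pandas 2.3.3 and, for plots, matplotlib 3.10.9.

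The members, the lists and the tests were chosen with earlier results of these data known. Values in every library are given for the 25 members with the smallest p among those called over both shRNAs or between them, for the member with the highest level in each role and for *POLE*. In fork protection, where none was called, the member with the largest change was added. Of the other lists, the 2 largest called rises and the 2 largest called falls are named. Alternatives were a pseudocount of 0.1, no filter, a filter of 5 FPKM, quantile normalization, centring, removal of the length trend, the replicate number as a block, limma without the trend, protein-coding accessions only, primary chromosomes only, the mean of both shRNA effects, the knockdown libraries alone, the study's criteria and leaving out each library. Testing accessions one by one was added after the values were seen. Some of the cell type markers are not reported here.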

Additional observations from a re-analysis of the deposited data

Results flagged for a closer look

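Each of the 48 members was checked for a library that lies apart from the other knockdown libraries, by the gap to its nearest neighbour over the range of the 6. The limit used flags about 1 in 20 groups of 6 values drawn from a single population, or 2.4 of 48, and 5 were found. Here each group pools both shRNAs and all genes share the same libraries, so 2.4 is not a measure of chance for these data. In 4 of them the library was shRNA2 replicate 2, which was the highest for *GINS4* (9.02 FPKM, the others 7.50 to 7.74), *MCM10* (19.96 FPKM, the others 17.3 to 17.9), *PRIM1* (40.96 FPKM, the others 36.3 to 37.6) and *RRM1* (72.0 FPKM, the others 64.4 to 66.4). This is the library whose length trend stood apart from the other knockdown libraries, and the part of that trend in these values was not tested. For *RFC4* the lowest library was shRNA2 replicate 1 (36.6 FPKM, the others 39.9 to 41.6).

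The effects of the shRNAs differed by limma for 4 members. The effect of shRNA2 minus that of shRNA1, on the log2 scale, was −0.30 for *MCM3*, −0.20 for *POLD2*, 0.17 for *ORC6* and 0.10 for *CDC45*, with adjusted p of 0.000235, 0.0359, 0.0368 and 0.0487. Over all alternatives the adjusted p reached 0.00634 for *MCM3*, 0.120 for *POLD2*, 0.128 for *ORC6* and 0.153 for *CDC45*.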

How the results depend on the processing

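The count of members called over both shRNAs was 25, and it was 14 with the length trend removed, 8 with the replicate block and the length trend removed, 1 by the study's thresholds with limma's p and 10 by accession. With the mean of both shRNA effects, all 25 were kept and 4 were added. These were *ORC6*, *GINS1* and *RRM1*, higher, and *MCM3*, lower, although *MCM3* moved in opposite directions with the shRNAs. Leaving out 1 library gave 14 to 27. For shRNA1 the 20 calls became 12 after quantile normalization, 12 with the length trend removed and 9 with the block as well, and 11 to 26 without 1 library. For shRNA2 the 27 calls stayed within 24 to 29 at the settings that keep all libraries and 22 to 29 without 1 library. Between the shRNAs the 4 calls became 2 without the filter, 2 with protein-coding accessions only, 8 with the length trend removed and 1 in the knockdown libraries alone, and 1 to 6 without 1 library. The 21 calls among the other replication genes became 12 with the replicate block and the length trend removed, and 11 to 24 without 1 library. Quantile normalization and removal of the length trend also moved the share of higher among all called genes, from 66.5% to 50.7% and 53.7%. With the length trend removed, the cause of lost calls was not tested.

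Deviations of same-numbered libraries from their group means correlated over genes at −0.071 to 0.111. Differently numbered libraries of different groups correlated at −0.123 to 0.184. The correlation between length and deviation from the gene mean was highest in replicate 2 of each group (0.524 with the scramble, −0.207 with shRNA1 and 0.213 with shRNA2). Whether same-numbered libraries were handled together cannot be decided from these values. With the replicate block 23 members were called over both shRNAs, 23 with shRNA1, 29 with shRNA2 and 3 between the shRNAs. Of the members not called, *TIMELESS* was −0.0098 after quantile normalization and −0.010 to 0.038 without 1 library, and *CLSPN* was −0.028 to 0.044 without 1 library. Over the named members' values under the alternatives, 531 kept their direction and side of the threshold, 134 lost their call, 1 gained one and 6, the negative values of *TIMELESS* and *CLSPN*, changed sign.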
